A study of Mus musculus with 4 samples.

Results

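The complement components and receptors described here are 8 genes of the 55356 in the table: the C1q chains *C1qa*, *C1qb* and *C1qc*, the central component *C3*, the alternative pathway genes *Cfb* and *Cfp*, and the anaphylatoxin receptor genes *C3ar1* and *C5ar1*. They were chosen by gene name, with earlier results of these data known. RNA came from immortalized mouse macrophages that all lack endogenous *MK2* (gene *Mapkapk2*), a kinase activated by p38. The i*MK2*-KO +*GFP* line carries an empty vector with GFP and the i*MK2*-KO +*MK2* line carries *MK2* put back by viral transduction. They are called +*GFP* and +*MK2* cells below, and each line was left untreated (UT) or received recombinant murine IL-1α at 5 ng/ml for 1 h. There was 1 library for each of the 4 conditions. Each genotype was 1 transduced line sorted for GFP, so the presence of *MK2* cannot be told apart from other differences between the lines, and no difference between conditions has a replicate check.

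Complement is a protein cascade that tags particles for uptake and triggers inflammation. C1q is assembled from A, B and C chains, encoded by *C1qa*, *C1qb* and *C1qc*, and starts the classical pathway. C3 is the protein on which the classical, lectin and alternative pathways converge. Factor B (*Cfb*) forms the alternative pathway convertase and properdin (*Cfp*) stabilizes it. The fragments C3a and C5a are sensed by the receptors C3aR1 and C5aR1. Most plasma complement comes from the liver, whereas macrophages are a main source of C1q and also make properdin and C3.

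The values are normalized counts, meaning read counts that the authors divided by a factor per library with DESeq2 and rounded. A log2 ratio here is the log2 of the ratio of 2 libraries after a pseudocount of 1 was added to each. Its 95% interval is an exact Clopper-Pearson interval that takes the deposited value as the number of reads. It covers counting error only and not variation between cultures, and "beyond counting error" means that this interval excludes 0. Summed normalized counts were between 24891906 and 25733071 per library. *Mapkapk2* itself stood at 561 in untreated and 1585 in IL-1α-treated +*GFP* cells, against 38357 and 38141 in +*MK2* cells, so the vector label of each library matched. This gene does not check the IL-1α label. Its counts in +*GFP* cells were not at 0 and were 2.82-fold higher with IL-1α (95% interval 1.36 to 1.64 on the log2 scale), and the table does not show which part of the gene they come from. All 8 macrophage markers listed (*Adgre1*, *Csf1r*, *Cd68*, *Cd14*, *Lyz2*, *Itgam*, *Fcgr1* and *Mertk*) were expressed, with summed values of 111846 to 125793, mostly from *Lyz2*, *Csf1r* and *Cd68*. Single markers differed between the lines. *Mertk* measured 421 and 364 in +*GFP* against 1093 and 1168 in +*MK2* cells, *Fcgr1* 1226 and 1194 against 2108 and 2216, and *Adgre1* 3978 and 4140 against 6832 and 6330, all lower in +*GFP* cells as the C1q chains and *C3ar1* were. *Cd14* was higher there, at 3652 and 8072 against 1962 and 2250. The part of these marker differences in the complement values was not tested. The 4 hepatocyte markers, including *Alb*, and the 4 fibroblast markers were at 0 in all libraries, the neutrophil list summed to 5 to 8 and the lymphocyte list to 0 to 1. The dendritic cell list summed to 25 and 18 in +*GFP* cells and to 106 and 117 in +*MK2* cells, nearly all of it *Zbtb46*, with *Flt3* and *Cd209a* at 0. The part of that difference in the results was not tested. In such bulk libraries fewer cells with a transcript and less transcript per cell cannot be told apart.

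The upstream sequences of *C1qb*, *C1qc* and *C3* are shown because the C1q chains and *C3* differed between the lines in opposite directions. Each is the 250 bases before the RefSeq transcription start in GRCm38.p6, read 5′ to 3′ on the minus strand that carries the gene, at chr4:136886201-136886450 for *C1qb*, chr4:136892915-136893164 for *C1qc* and chr17:57228137-57228386 for *C3*. Capitals mark matches to motifs searched on both strands, with overlapping matches run together.
C1qb: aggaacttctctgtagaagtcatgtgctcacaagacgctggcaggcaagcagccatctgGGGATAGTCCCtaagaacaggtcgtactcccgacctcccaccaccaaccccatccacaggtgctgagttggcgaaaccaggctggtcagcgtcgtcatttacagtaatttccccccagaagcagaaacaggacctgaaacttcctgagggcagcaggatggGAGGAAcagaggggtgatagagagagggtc
C1qc: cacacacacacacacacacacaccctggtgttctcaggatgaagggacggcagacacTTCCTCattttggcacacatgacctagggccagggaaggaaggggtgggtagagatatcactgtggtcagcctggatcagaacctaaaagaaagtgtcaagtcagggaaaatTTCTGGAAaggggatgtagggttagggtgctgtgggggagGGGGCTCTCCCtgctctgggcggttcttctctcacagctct
C3: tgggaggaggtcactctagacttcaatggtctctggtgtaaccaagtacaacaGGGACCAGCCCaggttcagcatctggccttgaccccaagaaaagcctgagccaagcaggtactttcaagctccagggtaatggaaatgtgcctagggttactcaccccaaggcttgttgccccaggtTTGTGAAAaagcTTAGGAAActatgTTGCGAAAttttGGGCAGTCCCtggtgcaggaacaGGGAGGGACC

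The motifs were GGGNNNNNCC (NF-κB), TTNNGNAA (C/EBP), GAGGAA (PU.1), TGANTCA (AP-1) and TGCTGAC (part of the MAF recognition element, called the MAF motif here). *C3* held 3 separate C/EBP matches, starting 70, 58 and 45 bases before the start, and 4 NF-κB matches, of which 1 pair overlapped. *C1qb* and *C1qc* each held 1 PU.1 match and 1 overlapping pair of NF-κB matches, and *C1qc* also held 1 C/EBP match. Of the other promoters found, *C3ar1* held 1 NF-κB and 1 AP-1 match, *Cfp* 1 NF-κB match and *C5ar1* 1 C/EBP match. The MAF motif was in none of the 6 promoters found for the 8 genes. Among 32851 RefSeq promoters of the same length, 45.8% held an NF-κB match, 36.8% a C/EBP match and 23.3% a PU.1 match. An AP-1 match was in 6.75% and the MAF motif in 3.81%. The NF-κB, C/EBP and PU.1 motifs are therefore common, and the AP-1 and MAF motifs less so. A match to any of these short motifs is a description of the letters only.

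The C1q chains were lower in +*GFP* than in +*MK2* cells, with and without IL-1α. *C1qa* (ENSMUSG00000036887.6) measured 86 normalized counts in untreated and 125 in IL-1α-treated +*GFP* cells, and 334 and 317 in +*MK2* cells. *C1qb* (ENSMUSG00000036905.9) measured 518 and 565 in +*GFP* cells, and 1027 and 971 in +*MK2* cells. *C1qc* (ENSMUSG00000036896.6) measured 306 and 351 in +*GFP* cells, and 1069 and 973 in +*MK2* cells. For each chain both +*GFP* libraries lay below both +*MK2* libraries. In the table's own coordinates, which differ from GRCm38, the 3 genes lie side by side on chromosome 4 at chr4:136623228-136626114, chr4:136607440-136613498 and chr4:136617115-136620376.

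**Figure D1:**
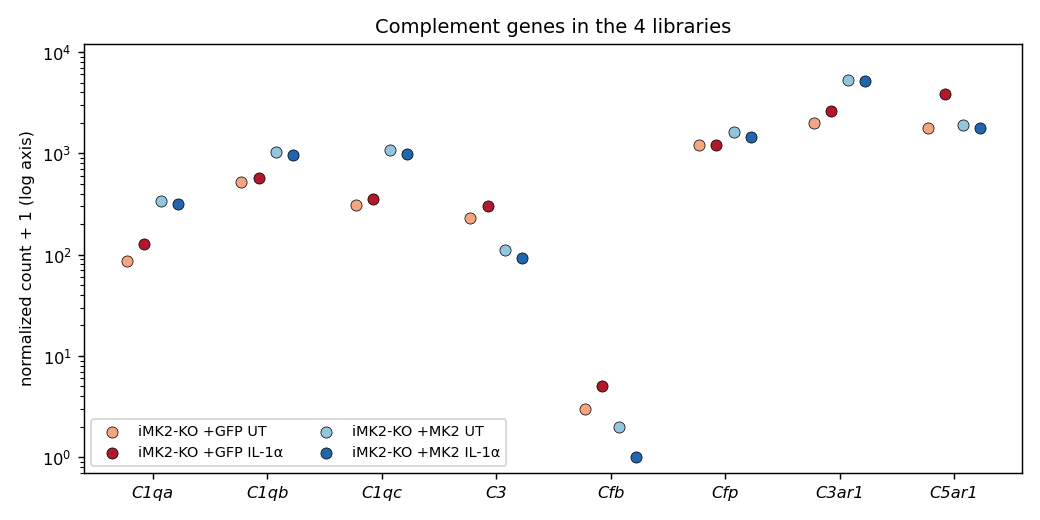
Normalized count plus 1 (log axis) of the 8 complement genes in each of the 4 libraries, with 1 point per library. The C1q chains and *C3ar1* are higher in +*MK2* cells, *C3* is higher in +*GFP* cells, and *C5ar1* stands out at 3889 in IL-1α-treated +*GFP* cells alone.

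In untreated cells the log2 ratio of +*GFP* to +*MK2* was -1.95 (95% interval -2.32 to -1.61) for *C1qa*, a 3.85-fold lower level. It was -1.80 (-1.99 to -1.62) for *C1qc*, 3.49-fold lower. It was -0.99 (-1.14 to -0.83) for *C1qb*, 1.98-fold lower and thus just short of 2-fold. After IL-1α the log2 ratios were -1.34 (-1.65 to -1.04), -1.47 (-1.65 to -1.29) and -0.78 (-0.93 to -0.63) for *C1qa*, *C1qc* and *C1qb*. Each interval lay below 0, and each ratio was nearer to 0 after IL-1α than in untreated cells. For *C1qb* that change of 0.21 was within counting error (95% interval from the normal approximation, -0.01 to 0.42). Among the 12483 genes with a mean of at least 10, 296 (2.37%) had a ratio as low as or lower than that of *C1qa* in untreated cells.

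The chains did not differ between the lines by the same factor. Added up, the chains gave 910 in +*GFP* cells without and 1041 with IL-1α, and 2430 and 2261 in +*MK2* cells. Of these sums *C1qb* made up 56.9% (95% exact binomial interval 53.6 to 60.2%) in untreated +*GFP* cells and 42.3% (40.3 to 44.3%) in untreated +*MK2* cells, with 54.3% and 42.9% after IL-1α. *C1qc* made up 33.6% and 33.7% in +*GFP* cells, against 44.0% and 43.0% in +*MK2* cells. *C1qa* made up 9.45% and 12.0% against 13.7% and 14.0%. The B chain thus took a larger share of the counts in +*GFP* than in +*MK2* cells. In +*GFP* cells the *C1qc* count stood at 59.1% and 62.1% of that of *C1qb*, and in +*MK2* cells at 104% and 100%. These shares and percentages are not corrected for exon length, which was 1088 bases for *C1qb* and 1931 for *C1qc*. Per exonic kilobase *C1qb* was the higher in +*MK2* cells too, at 944 and 892 against 554 and 504. The shares are therefore compared here between the lines and not between the chains.

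**Figure D2:**
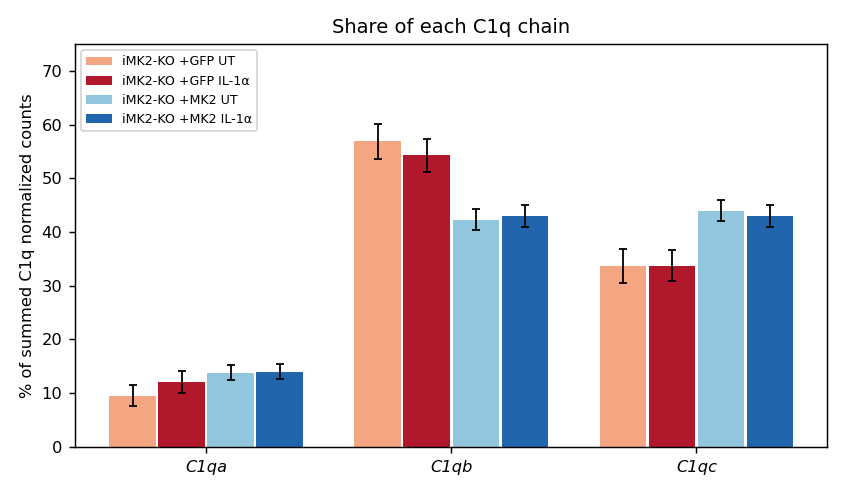
Percent of the summed C1q normalized counts contributed by each chain in each library, with bars from 0 and error bars for the 95% exact binomial interval, which covers counting error only. *C1qb* takes 56.9% and 54.3% in +*GFP* cells and 42.3% and 42.9% in +*MK2* cells. The counts are not divided by exon length, so a share can be compared between libraries but not between chains.

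*C3* (ENSMUSG00000024164.16, chr17:57510970-57535136 in the table's coordinates) differed in the other direction. It measured 230 in untreated and 298 in IL-1α-treated +*GFP* cells, and 109 and 91 in +*MK2* cells, so that both +*GFP* libraries were the higher ones. The log2 ratio of +*GFP* to +*MK2* was 1.07 (0.74 to 1.42) in untreated cells, a 2.10-fold higher level, and 1.70 (1.37 to 2.07) after IL-1α, 3.25-fold higher. Of the 12483 genes, 223 (1.79%) reached the latter ratio.

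Of the alternative pathway genes, properdin was expressed and factor B was not detectable beyond a few counts. *Cfp* (ENSMUSG00000001128.8, chrX:20791693-20797794) measured 1200 and 1219 in +*GFP* cells, and 1632 and 1463 in +*MK2* cells. Both +*GFP* libraries were lower, with log2 ratios of -0.44 (-0.55 to -0.34) in untreated cells and -0.26 (-0.37 to -0.15) after IL-1α. *Cfb* (ENSMUSG00000090231.11, chr17:35075350-35081494) measured 2 and 4 in +*GFP* cells, and 1 and 0 in +*MK2* cells. A count of 0 allows up to 3 reads, so no fold is given for *Cfb*, and a difference between its libraries was not detectable at this depth.

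The anaphylatoxin receptor genes differed from each other in pattern. *C3ar1* (ENSMUSG00000040552.9, chr6:122824097-122833120), the receptor for C3a, measured 1983 in untreated and 2638 in IL-1α-treated +*GFP* cells, and 5268 and 5167 in +*MK2* cells. Both +*GFP* libraries were the lower ones, with log2 ratios of -1.41 (-1.48 to -1.33) and -0.97 (-1.04 to -0.90), which are 2.66-fold and 1.96-fold lower levels. *C5ar1* (ENSMUSG00000049130.7, chr7:15980668-15993465), a receptor for C5a, measured 1768 and 3889 in +*GFP* cells, and 1905 and 1763 in +*MK2* cells. Here 3 libraries lay close together and IL-1α-treated +*GFP* cells stood above them. The log2 ratio of +*GFP* to +*MK2* was -0.11 (-0.20 to -0.01) in untreated cells and 1.14 (1.06 to 1.22) after IL-1α.

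Counted together, 7 of the 8 genes had a mean of at least 10, all but *Cfb*. In untreated cells 1 of the 7 was at least 2-fold higher in +*GFP* cells (*C3*) and 3 were at least 2-fold lower (*C1qa*, *C1qc* and *C3ar1*), where 3.50% and 5.23% of all genes were. Beyond counting error, 1 of 7 was higher and 6 were lower, against 30.8% and 26.9% of all genes. After IL-1α 2 of 7 were at least 2-fold higher (*C3* and *C5ar1*) and 2 lower (*C1qa* and *C1qc*), against 4.15% and 5.56% of all genes, and beyond counting error 2 were higher and 5 lower, against 33.7% and 26.3%. The median log2 ratio of the 7 genes was -0.99 in untreated and -0.78 in IL-1α-treated cells, where the median of all genes was 0.02 and 0.03. Since the genes were chosen with earlier results known, these counts and medians describe them only.

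**Figure D3:**
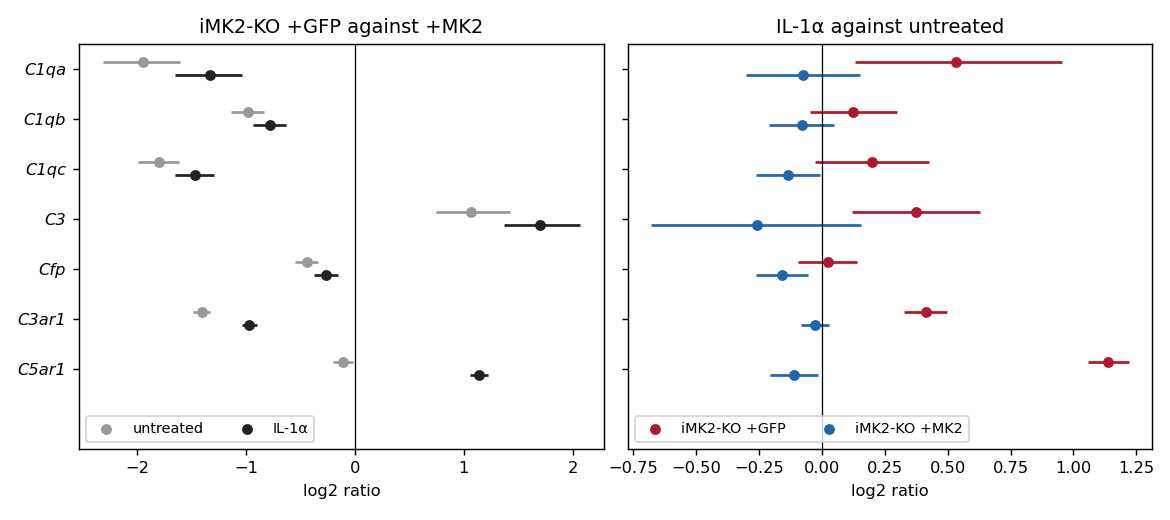
Log2 ratios (x axis) of the 7 complement genes with a mean of at least 10, with lines for the 95% counting interval; +*GFP* against +*MK2* cells on the left, untreated or with IL-1α, and the effect of IL-1α within each line on the right. On the right, *C5ar1* in +*GFP* cells lies at 1.14 while its ratio in +*MK2* cells is -0.11.

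IL-1α at 1 h was followed by higher levels of 4 of the 7 genes in +*GFP* cells. These comparisons use the same libraries as those between the lines, so a high value in 1 library enters both. *C5ar1* rose 2.20-fold in +*GFP* cells, with a log2 ratio of 1.14 (1.06 to 1.22), and 215 of the 12483 genes (1.72%) rose as much or more. *C1qa* rose by 0.53 (0.13 to 0.95) on the log2 scale, *C3ar1* by 0.41 (0.33 to 0.50) and *C3* by 0.37 (0.12 to 0.63). The ratios of *C1qc* at 0.20 (-0.03 to 0.42), *C1qb* at 0.13 (-0.05 to 0.30) and *Cfp* at 0.02 (-0.09 to 0.14) were within counting error. Thus 1 of 7 was at least 2-fold higher and 0 were 2-fold lower, against 2.24% and 1.58% of all genes. Beyond counting error 4 were higher and 0 lower, against 20.0% and 12.3%. The median of the 7 was 0.37 and that of all genes 0.01.

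In +*MK2* cells the same treatment was followed by smaller differences. *Cfp* at -0.16 (-0.26 to -0.06), *C1qc* at -0.14 (-0.26 to -0.01) and *C5ar1* at -0.11 (-0.21 to -0.02) were lower beyond counting error. *C1qa* at -0.08 (-0.30 to 0.15), *C1qb* at -0.08 (-0.21 to 0.05), *C3* at -0.26 (-0.68 to 0.15) and *C3ar1* at -0.03 (-0.08 to 0.03) were within it. None of the 7 reached 2-fold, where 0.889% of all genes were at least 2-fold higher and 1.03% lower. Beyond counting error 0 were higher and 3 lower, against 11.4% and 8.23%, and the median was -0.11 against 0.01 for all genes. All 7 ratios were above 0 in +*GFP* and below 0 in +*MK2* cells, a combination found in 23.1% of all genes. For *Cfp* this depended on the scaling, since its ratio in +*GFP* cells was -0.02 with equal library totals or with scaling to *Gapdh*.

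**Figure D4:**
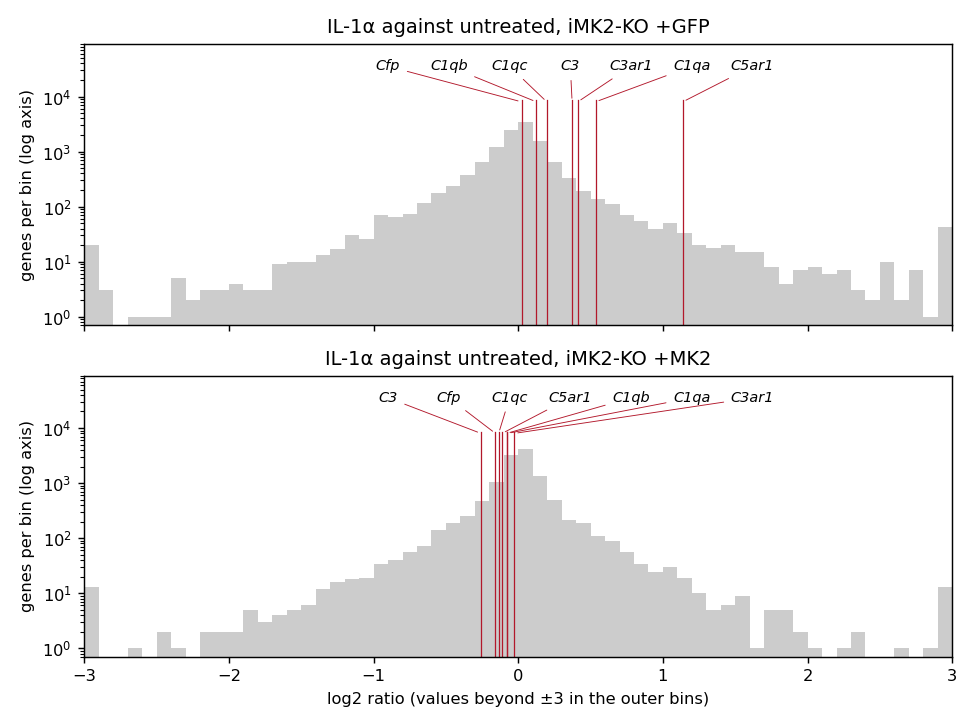
Number of genes (log axis) per bin of the log2 ratio of IL-1α-treated to untreated cells, for the 12483 genes with a mean of at least 10, with the 7 complement genes as vertical lines. In +*GFP* cells *C5ar1* at 1.14 lies in the upper tail, and in +*MK2* cells the 7 genes lie between -0.26 and -0.03.

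Values per exonic kilobase allow a rough comparison of different genes, and the order of the genes differed between libraries. In untreated +*GFP* cells *Cfp* (691 normalized counts per kb) and *C5ar1* (688) came first, followed by *C1qb* (476), *C3ar1* (461), *C1qc* (158), *C1qa* (82.7), *C3* (44.7) and *Cfb* (0.708). After IL-1α *C5ar1* led with 1513, followed by *Cfp* with 702. In +*MK2* cells *C3ar1* came first with 1224 in untreated and 1200 in IL-1α-treated cells, followed by *C1qb* with 944 and 892, and *C3* stood at 21.2 and 17.7. Exon lengths were those of all annotated exons joined, from GENCODE M21, and not of the transcripts quantified. The order of the genes, including that of the C1q chains, is therefore approximate. Neighbours as close as *Cfp* and *C5ar1* in untreated +*GFP* cells are not ordered by these values.

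The wider complement list held 49 genes, of which 20 had a mean of at least 10 and 20 were at 0 in all libraries. Those at 0 included *Hc*, which encodes C5, factor D (*Cfd*), factor I (*Cfi*) and the receptor *Vsig4*. In untreated cells 3 of the 20 were at least 2-fold higher in +*GFP* cells and 2 lower, against 3.50% and 5.23% of all genes, and beyond counting error 9 were higher and 4 lower, against 30.8% and 26.9%. After IL-1α the counts were 2 and 1 at 2-fold, against 4.15% and 5.56%, and 8 and 6 beyond counting error, against 33.7% and 26.3%. The medians were 0.06 and -0.08, near those of all genes.

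*C5ar2*, which encodes the second C5a receptor and lies next to *C5ar1* on chromosome 7 at chr7:15968510-15978079, measured 137 and 116 in +*GFP* cells and 873 and 827 in +*MK2* cells. Its log2 ratio of +*GFP* to +*MK2* was -2.66 (-2.94 to -2.41) in untreated cells. The number of *C5ar1* counts per *C5ar2* count was therefore 12.9 (10.8 to 15.5) and 33.5 (27.9 to 40.7) in untreated and IL-1α-treated +*GFP* cells, against 2.18 (2.01 to 2.37) and 2.13 (1.96 to 2.32) in +*MK2* cells. *Cd93*, a surface protein first described as a C1q receptor, measured 3672 and 3180 in +*GFP* cells and 184 and 192 in +*MK2* cells, a log2 ratio of 4.31 (4.10 to 4.54) in untreated cells. The other C1q binding proteins differed little between the lines, with *C1qbp* at 8913 to 9711, *Calr* at 27101 to 29030 and *Lrp1* at 24303 to 25797.

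**Figure D5:**
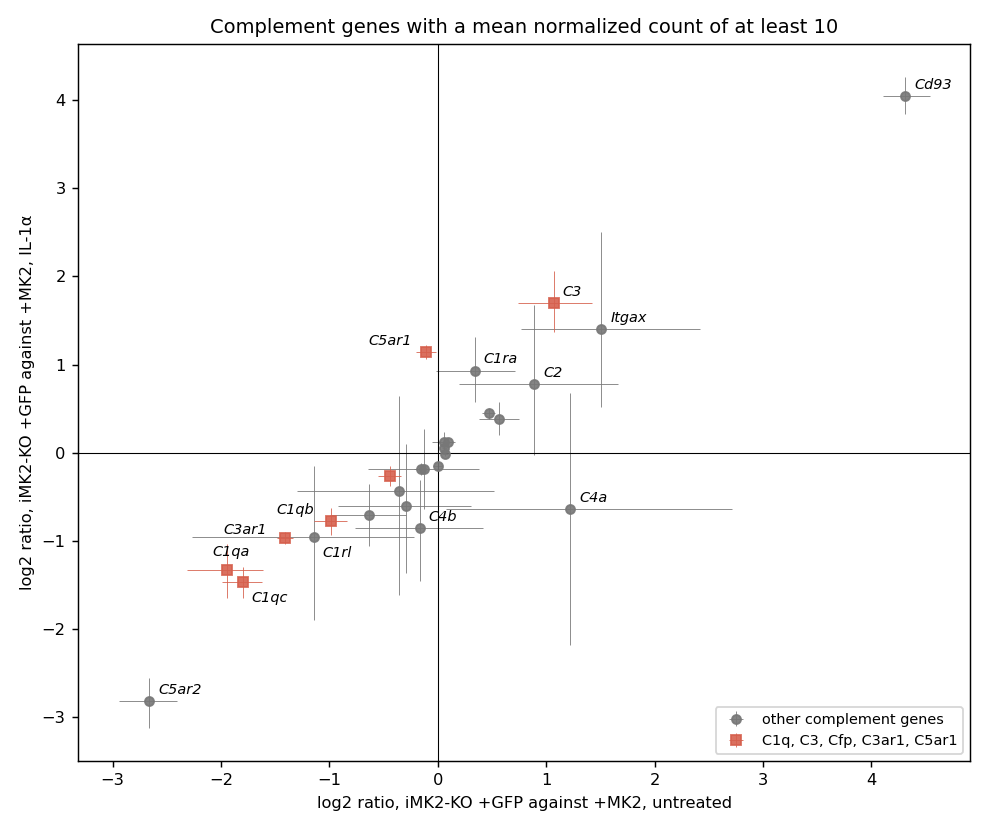
Log2 ratio of +*GFP* to +*MK2* cells without (x axis) and with IL-1α (y axis) for the complement genes with a mean of at least 10, with 95% counting intervals as lines. *Cd93* at 4.31 and *C5ar2* at -2.66 lie farthest out, and *C5ar1* lies off the diagonal, near 0 in untreated cells and at 1.14 after IL-1α.

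The remaining pathway genes were mostly low. *C1ra*, a protease partner of C1q, measured 146 and 180 in +*GFP* and 115 and 94 in +*MK2* cells, and *C2*, which the classical pathway cleaves, 49 and 35 against 26 and 20. *C4a* at 8 to 20 and *C4b* at 42 to 77 are near-identical copies whose reads may be split between them, so their values are uncertain. The membrane regulator *Cr1l* was at 1343 to 1465 in all libraries. Of the subunits of complement receptors 3 and 4, *Itgam* (3750 to 4304) and *Itgb2* (3807 to 5295) were abundant and *Itgax* (13 to 53) was low. *Itgax* was higher in +*GFP* cells, at 53 and 36 against 18 and 13 in +*MK2* cells. *Itgb2* was higher there too, at 5277 and 5295 against 3807 and 3886. *Itgam* was lower there, at 3750 and 3786 against 4186 and 4304. With IL-1α 1 of the 20 genes was higher and 3 lower beyond counting error in +*GFP* cells, against 20.0% and 12.3% of all genes, and 2 were higher and 0 lower in +*MK2* cells, against 11.4% and 8.23%.

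Transcription factors known to act at complement genes also differed between the lines. *Maf* measured 34 and 25 in +*GFP* and 1546 and 1298 in +*MK2* cells. *Cebpb*, a C/EBP family member, measured 1777 and 2713 in +*GFP* and 1627 and 1776 in +*MK2* cells, and *Cebpd* 153 and 269 against 184 and 177. Both were highest in IL-1α-treated +*GFP* cells. *Spi1*, which encodes PU.1, was at 4551 to 5524. Whether any of these factors has a part in the complement values was not tested.

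For members whose mean was 50 or more and whose log2 values spanned 1 or more, the genes with the most similar pattern over the 4 libraries were found by Euclidean distance between centred log2 values. The nearest to *C1qa* was *Hbegf* (distance 0.0703), the nearest to *C1qc* *Atf5* (0.0740) and the nearest to *C3ar1* *Il1rn* (0.0788). The nearest to *C5ar1* was *Tgif1* (0.176), followed by *Tfec* (0.184) and *Ripk2* (0.191). *Carmil1*, *Tapbpl* and *Cped1* were nearest to *C3*, each at 0.158. With 4 libraries and 10585 genes compared, close patterns are a description only.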

How the data were processed

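RNA-seq of 4 libraries of immortalized macrophages was analysed. The authors deposited 1 table of score values, which are read counts they normalized with DESeq2 and rounded to whole numbers. Ratios used each score as deposited, and the counting intervals took it as the number of reads. Size factors, tool versions and the annotation were not given in the sources used here. The labels give poly(A) selection and a stranded kit, whereas the study's methods give ribosomal RNA depletion. The labels name GRCm38, but the coordinates of all 8 members differ from it with equal gene lengths, so the build of the table is not known. Groups came from sample titles. Ratios, Clopper-Pearson intervals and counts were computed with Python 3.11.15, pandas 2.3.3 and scipy 1.17.1. The intervals were tested on simulated counts that held counting error only, as the intervals assume. That test checks their computation and not variation between cultures. Background counts used the 12483 genes with a mean of at least 10. With 1 library per condition no test was run. Text names the members, the wider complement list at a mean of at least 10, listed transcription factors and markers, *Mapkapk2*, and the 3 genes nearest in pattern. Some listed genes are not reported here. Members and lists were chosen with earlier results of these data known. The genes *C1qa* and *Cfb* had no RefSeq promoter entry. Other scalings, pseudocounts, minimum means, folds and read depths were tried.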

Additional observations from a re-analysis of the deposited data

Results flagged for a closer look

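The response to IL-1α had opposite signs in the lines for all 7 complement genes with a mean of at least 10, above 0 in +*GFP* and below 0 in +*MK2* cells, as in 23.1% of all genes. Of these responses 3 in +*GFP* and 4 in +*MK2* cells were within counting error, and only *C5ar1* was beyond it in both lines. There was 1 library per condition, so the difference was not tested. The difference of the log2 responses, +*GFP* minus +*MK2*, was 1.25 (95% interval from the normal approximation of the counting error, 1.12 to 1.37) for *C5ar1*, 0.63 (0.16 to 1.10) for *C3* and 0.61 (0.16 to 1.06) for *C1qa*. It was 0.44 (0.34 to 0.54) for *C3ar1*, 0.33 (0.08 to 0.59) for *C1qc*, 0.21 (-0.01 to 0.42) for *C1qb* and 0.18 (0.03 to 0.33) for *Cfp*. With equal library totals or scaling to *Gapdh*, the signs were opposite in 6 of the 7, since *Cfp* was at -0.02 in +*GFP* cells.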

How the results depend on the processing

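Under 3 other scalings and 2 other pseudocounts, 138 of 140 member ratios stayed inside their counting interval and 2 lay outside, both after IL-1α between the lines with scaling to *Gapdh*: *C3ar1* at -1.07 and *C5ar1* at 1.04. None reversed beyond counting error, and 2 within it changed sign, both *Cfp*. In the values below, "between the lines" is +*GFP* against +*MK2* and counts are at least 2-fold unless stated. A 3-fold threshold left 0 members higher between untreated lines, 1 higher and 0 lower after IL-1α, and 0 higher with IL-1α in +*GFP* cells, against 1, 2, 2 and 1 at 2-fold. A 1.5-fold threshold gave 4 members lower after IL-1α between the lines, against 2. With no minimum mean the count of members lower with IL-1α in +*MK2* cells was 1, from *Cfb* at 1 and 0 counts, which is not a detectable difference, and with 0.5 reads taken per unit of deposited value 1 member, against 3, was lower there beyond counting error.

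For the wider complement list, with no minimum mean 5 were lower between untreated lines, 4 higher and 6 lower after IL-1α, 2 higher and 4 lower with IL-1α in +*GFP* and 3 higher and 2 lower in +*MK2* cells, against 2, 2 and 1, 0 and 1, and 0 and 0. A minimum mean of 50 gave 1 higher and 1 lower between untreated lines, 1 higher after IL-1α and 0 lower with IL-1α in +*GFP* cells. With 1.5-fold 4 were higher and 6 lower after IL-1α between the lines, 3 lower with IL-1α in +*GFP* and 1 higher in +*MK2* cells. With 3-fold 1 was higher and 1 lower between untreated lines, 1 higher after IL-1α and 0 lower with IL-1α in +*GFP* cells. Pseudocount 5 gave 1 lower between untreated lines and 0 lower with IL-1α in +*GFP* cells. Scaling to *Gapdh* gave 2 lower and, beyond counting error, 5 higher (against 8) after IL-1α between the lines. Scaling to *Gapdh* or to equal library totals gave 0 higher beyond counting error with IL-1α in +*GFP* cells, against 1. With 2 reads taken per unit, the list had 2 higher and 8 lower with IL-1α in +*GFP* cells (against 1 and 3) and 4 higher and 1 lower in +*MK2* cells (against 2 and 0), all beyond counting error.

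The share of all genes at 2-fold, in the order higher and lower, was 12.2% and 14.4% between untreated lines, 12.6% and 13.9% after IL-1α, 11.0% and 10.7% with IL-1α in +*GFP* and 9.53% and 10.4% in +*MK2* cells with no minimum mean. In the same order it was 7.17%, 10.2%, 8.29%, 11.1%, 4.57%, 4.04%, 2.58% and 2.71% at 1.5-fold, and 1.73%, 3.06%, 2.10%, 3.01%, 1.03%, 0.505%, 0.296% and 0.296% at 3-fold. A minimum mean of 50 gave 2.29% and 3.22% between untreated lines, 3.49% lower after IL-1α, 1.38% and 0.368% with IL-1α in +*GFP* and 0.236% and 0.161% in +*MK2* cells. Pseudocount 5 gave 0.833% lower in +*GFP* and 0.481% higher and 0.561% lower in +*MK2* cells with IL-1α. Of 333 counts and shares in all, 263 stayed within 1.5 times.

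No paired analysis was possible because each condition has 1 library, and leaving out a replicate was likewise not run. The intervals cover counting error only, and the true reads per unit are unknown. Low counts limit *Cfb* and most of the wider list.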
